A study of Mus musculus with 16 samples.

Results

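Foxa1 had 2057 narrow sites on day 30 that were listed for no other factor and not for Foxa1 on day 2. These sites are the peaks of the Foxa1 day 30 list that were under 150 bp wide and overlapped no peak of the other 7 lists by 1 bp or more. They make up 61.8% of the 3331 peaks of that list (exact Clopper-Pearson 95% interval 60.1 to 63.4%), and the 8 lists together hold 4839 peaks. The sites were chosen by measured values, their width and their lack of overlap, so both are given as descriptions, and no test was made. Each factor had 1 ChIP sample on each day. No value therefore carries an error between samples, and the intervals cover counting error only.

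The study mapped binding by chromatin immunoprecipitation and sequencing (ChIP-seq) in fibroblasts grown from C57BL/6 mouse embryos of 13.5 days post coitum. Separate cultures were infected with Foxa1, Foxa2, Foxa3 or Hnf4a, each factor alone. The ChIP was done on day 2 and on day 30 against the introduced factor. All samples are labelled as embryonic fibroblasts, although the growth protocol also mentions induced hepatocyte-like cells, and the state of the cells on day 30 is not given. The vector, its promoter and the share of infected cells are not given either, and no expression data were at hand to check the cell type. The 8 input samples were not analysed here.

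Foxa1 is a forkhead protein whose winged-helix DNA-binding domain resembles that of linker histones. It is known as a pioneer factor, one that can bind its motif in closed chromatin and make it accessible to others, and it works in liver and other endoderm with its relatives Foxa2 and Foxa3. Hnf4a is a nuclear receptor of hepatocytes. A peak in a ChIP-seq list is a stretch in which the pile of fragments passed the caller's limit. Its width, and the gap to the next peak, depend on the signal and on the caller's settings, which are not given. Coordinates are on the mouse build mm9. No genome or annotation of that build was used here, so no site was assigned to a gene or a motif and no sequence is shown.

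The sites were short, many of them as short as the list allows. The narrowest was 76 bp, which is also the shortest peak of the whole list, and 298 of the 2057 sites (14.5%) had exactly this width. A further 748 (36.4%) were 77 to 99 bp wide, 628 (30.5%) were 100 to 124 bp and 383 (18.6%) were 125 to 149 bp. The median was 99 bp, with quartiles of 82 and 119 bp. Together the sites covered 210.3 kb, which is 42.4% of the 496.5 kb covered by the list. The peaks of 150 bp or wider that were in no other list, 771 in number, covered 167.2 kb with a median width of 191 bp. The 503 peaks that overlapped another list covered 119.0 kb with a median of 184 bp.

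**Figure D1:**
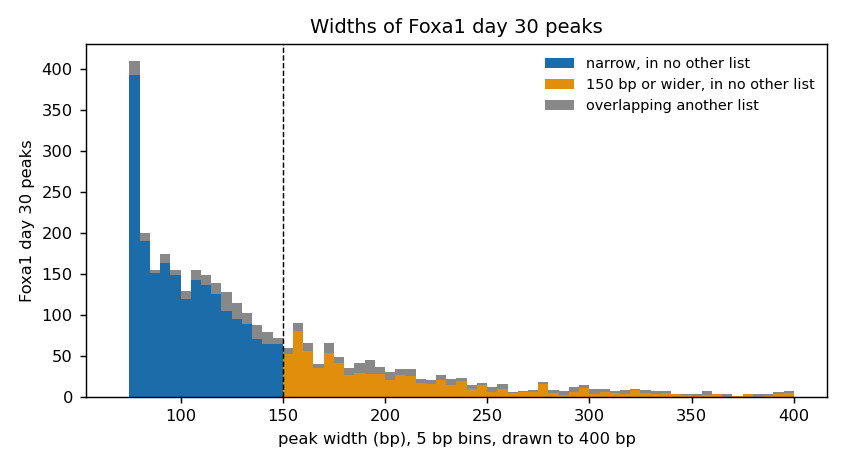
Number of Foxa1 day 30 peaks by width in bp, in bins of 5 bp up to 400 bp, stacked by class, with the limit of 150 bp as a dashed line. The tallest bin holds the shortest width of 76 bp, and the counts run across the limit without a gap.

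Nothing in the widths marked 150 bp as a boundary. Of the peaks in no other list, 64 were 145 to 149 bp wide and 52 were 150 to 154 bp. The median score was 11.3 in both groups, with a range of 5.08 to 24.5 just inside the limit and 6.17 to 21.5 just outside. The part of peaks found in no other list changed with width. It was 96.1% of 310 peaks of the shortest width (93.3 to 98.0%), 95.4% of 784 at 77 to 99 bp and 89.7% of 700 at 100 to 124 bp. It was 84.2% of 455 at 125 to 149 bp, 81.4% of 528 at 150 to 199 bp, 71.9% of 349 at 200 to 299 bp and 43.9% of 205 at 300 bp or more (37.0 to 51.0%). The median score of the unshared peaks was 8.77 at the shortest width and 12.98 at 300 bp or more, and the part of width or score in this share was not tested.

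Of all peaks under 150 bp, 192 were left out because they overlapped another list. Foxa1 day 2 was overlapped by 104 of these, Foxa2 day 30 by 57, Foxa3 day 30 by 48, Foxa2 day 2 by 6 and Hnf4a day 30 by 1, while Foxa3 day 2 and Hnf4a day 2 were overlapped by none. Lists can share a peak, and 20 of the 192 overlapped 2 or more. The median of these narrow shared peaks was 119 bp in width and 12.6 in score.

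Each peak carries the authors' score, read here as −log10 of a p-value. It is used to rank peaks and to set limits within this list, and the values it takes are described further below. The narrow unshared sites had a median score of 9.95, with quartiles of 7.84 and 11.8. The wide unshared peaks had a median of 11.4 and the shared peaks one of 17.5. A score of 15 or more was reached by 174 of the 2057 narrow sites (8.46%), by 190 of 771 wide unshared peaks (24.6%) and by 301 of 503 shared peaks (59.8%). Only 29 narrow sites scored 20 or more. Within the narrow sites, score and width had a Spearman's rho of 0.20 and a Pearson's r of 0.22 (2057 sites of 1 library). The rule cut the widths at 150 bp and left out shared peaks, so these values do not describe the whole list. The sites of the shortest width had a median score of 8.77 and none above 13.9, and those of 125 to 149 bp a median of 11.0 and a highest score of 25.6.

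None of the 10 highest-scoring narrow sites lay close to another peak, unlike some sites with slightly lower scores. The highest score, 26.4, belonged to a site of 118 bp at chr5:107866745-107866862, with the nearest Foxa1 day 30 peak 168.6 kb away and the nearest peak of another list, Foxa3 day 30, 234.6 kb away. The site at chr4:106883235-106883364 followed with 25.6. Another 4 sites scored 24.96, at chr13:54526727-54526851, chr4:11118325-11118434, chr4:42386243-42386356 and chr4:42780825-42780936. The remaining 4 of the top 10 were at chr4:9613309-9613427 and chr9:33814644-33814791, both with a score of 24.5, and at chr1:3837413-3837513 and chr4:105680262-105680399, both with 23.5, a score that 3 sites share. None of these 10 sites had a Foxa1 day 30 peak within 67 kb or a peak of another list within 34 kb. Both limits were read from the smallest distances among the 10. Over all narrow sites the median distances were 89.5 kb and 592.4 kb, and no difference from these was tested. Of the 10, 6 lay on chromosome 4, which held 6.85% of all narrow sites and 13 of the 100 with the highest scores.

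Spacing showed 2 scales, sites in tight groups and sites far apart, with fewer distances between. The nearest Foxa1 day 30 peak of any kind lay within 500 bp for 312 of the 2057 sites (15.2%, 13.6 to 16.8%), 500 bp to 1 kb away for 34 and 1 to 10 kb away for 177. It was 10 to 100 kb away for 548 sites, 100 kb to 1 Mb for 819 and more than 1 Mb for 167. The median was 89.5 kb. The closest 2 peaks of the list were 50 bp apart. The nearest other narrow unshared site was a median of 193.5 kb away, with quartiles of 34.4 and 629.7 kb. A nearest site within 10 kb was found for 331 of them (16.1%, 14.5 to 17.8%), and 317 had none within 1 Mb. With Foxa1 day 30 peaks within 500 bp merged, 6.70% of 1745 sites had another narrow site within 10 kb and the median distance was 288.8 kb. With scores of 10 or more, the values were 7.25% of 1021 sites and 546.4 kb. Both settings leave fewer sites, which by itself puts them farther apart. Merging also takes out every site with a Foxa1 day 30 peak within 500 bp, because the merged peak is wider than 150 bp. The share within 10 kb was therefore bound to fall with merging.

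**Figure D2:**
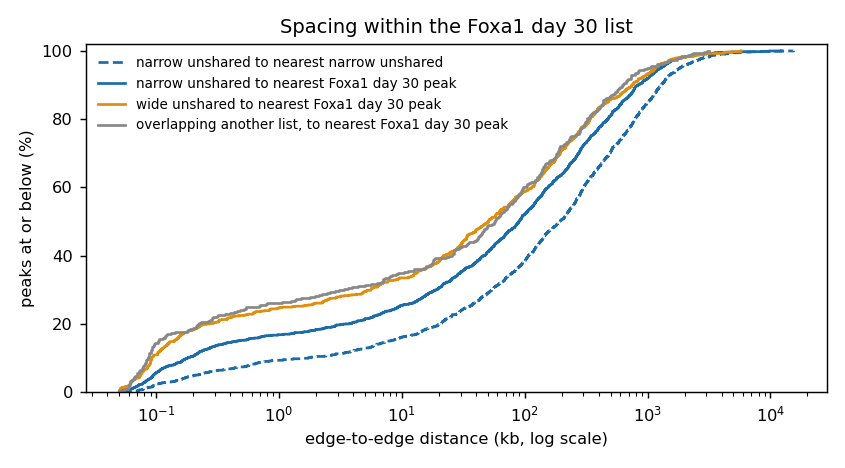
Cumulative share of peaks (percent) by edge-to-edge distance in kb, on a log axis, to the nearest narrow unshared site (dashed) or the nearest Foxa1 day 30 peak of any kind (solid). The curves climb below 1 kb, run flatter up to 10 kb and climb again, and the narrow unshared sites lie below both other classes at 1 kb.

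Of the narrow sites that had a neighbour within 500 bp, 152 had another narrow unshared site there, 104 a wide unshared peak and 99 a peak that overlapped another list. These classes can hold the same site. The share with any Foxa1 day 30 peak within 500 bp was 22.4% of the wide unshared peaks (19.5 to 25.6%) and 24.1% of the shared peaks (20.4 to 28.0%), above the interval of the narrow sites. The difference was not tested. Narrow sites with such a neighbour had a median score of 8.81, and the other 1745 one of 10.2. In the lowest of 4 score groups, 22.8% of 580 sites had a Foxa1 day 30 peak within 500 bp, against 16.3% of 454 in the next, 10.2% of 509 in the third and 10.5% of 514 in the highest. A Foxa1 day 30 peak lay within 10 kb of 32.8%, 26.9%, 20.8% and 20.4% of the 4 groups, from the lowest scores to the highest.

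When sites were chained over gaps of up to 20 kb, 1647 stood single and 410 (19.9%, 18.2 to 21.7%) fell into 186 chains, of which 161 were pairs and 17 were triplets. The largest chain held 6 sites in 22.3 kb at chr7:128954018-128976271. Its sites scored 10.2, 7.84, 11.4, 7.84, 14.96 and 6.68 from left to right, 3 wide unshared peaks lay among them, and no other list had a peak within 3200 kb. A chain of 5 at chr1:79718355-79742890 spanned 24.5 kb with scores of 9.86 to 12.6 and no other Foxa1 day 30 peak in it. These 2 chains were spread over more than 20 kb and lay far from every other list, the second 2546 kb from Foxa1 day 2.

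The other 2 chains of 5 were compact and lay around a peak shared with Foxa1 day 2. At chr1:109611126-109612416, 5 sites of 80 to 125 bp and 1 shared peak were packed into 1.29 kb, with gaps between the narrow sites of at most 328 bp and scores of 7.84 to 11.3. At chr14:60425762-60428856 the 5 sites spanned 3.10 kb around 1 shared peak and scored 5.08 to 10.2. There were 4 chains of 4 sites, and the 1 named by its rank is at chr8:42212727-42217442, with 2 wide unshared peaks in it and the nearest peak of another list 60.9 kb away. Wide unshared peaks, which are fewer, were in chains at 17.9% (15.3 to 20.8%), and shared peaks at 9.94% (7.47 to 12.9%).

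At the scale of 1 Mb the narrow sites were uneven but nowhere dense. Of 2633 windows, 1488 (56.5%) held none, 633 held 1, 281 held 2 and 35 held 5 or more. The variance of the window counts was 1.78 times their mean, and 1.75 times without chromosome X. For wide unshared peaks it was 1.61 and for shared peaks 1.35. The mean counts were 0.781 for narrow sites, 0.293 for wide unshared peaks and 0.191 for shared peaks. This ratio depends on the mean, so it does not rank the 3 classes by unevenness. The fullest window, from 63 to 64 Mb on chromosome 11, held 9 narrow sites over 803.5 kb, none of them with a peak of another list in the same window. Windows with 8 followed on chromosome 10 (96 to 97 Mb), with 6 shared peaks beside them, and on chromosome 4 (85 to 86 Mb), with none. The window from 42 to 43 Mb on chromosome 4, picked after its values were seen, held 6 narrow sites with a median score of 18.6, against 9.95 for all. Peaks of all lists also form 9 dense blocks, in which 10 or more peaks follow each other with gaps of up to 20 kb; 3 of the 2057 sites lay in one. The block with the most peaks, at the start of chromosome 9 (3000026 to 3038273), held none.

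The narrow sites were found on chromosomes 1 to 19 and X. The last peak end of any list stood in for the length of a chromosome. Chromosomes 1 to 19 together held 2037 sites at 0.829 per Mb, from 0.707 on chromosome 12 to 1.01 on chromosome 10, with 0.977 on chromosome 11, 0.919 on chromosome 16 and 0.909 on chromosome 4. By count, chromosome 1 led with 167 sites, followed by chromosome 2 with 143, chromosome 4 with 141 and chromosome 3 with 138, and chromosome 19 had 48. For 17 of the 20 chromosomes the share of the length lay within the interval of the share of the sites, and chromosomes 10, 11 and X were the exceptions. The intervals were not adjusted for the number of chromosomes and treat neighbouring sites as independent, so they are too narrow for clustered sites. Chromosome 10 has 4.89% of the length and held 6.32% of the sites (5.31 to 7.46%), and chromosome 11 has 4.64% and held 5.79% (4.82 to 6.88%).

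**Figure D3:**
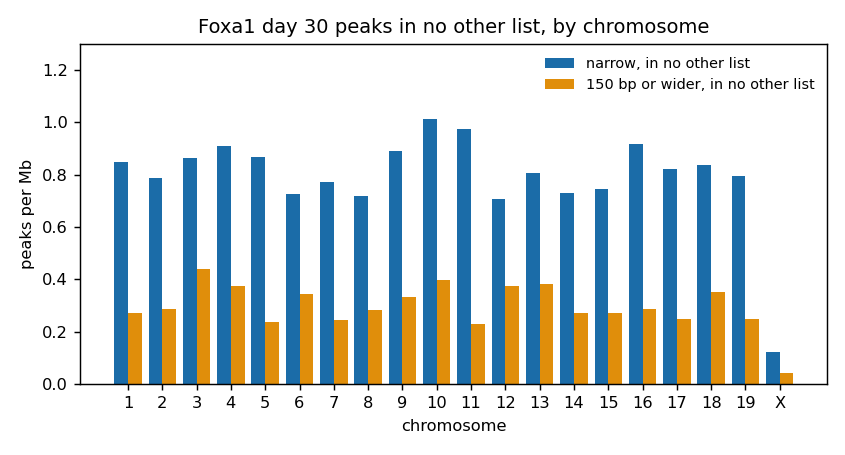
Foxa1 day 30 peaks in no other list per Mb of each chromosome, with bars from 0 for sites under 150 bp and for peaks of 150 bp or wider. The autosomes stand between 0.707 and 1.01 narrow sites per Mb, and X at 0.120.

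Chromosome X stood apart. It has 6.35% of the length and held 20 narrow sites (0.972%, 0.595 to 1.50%), or 0.120 per Mb, so chromosomes 1 to 19 had 6.91 times as many per Mb. Wide unshared peaks had a ratio of 7.40 and shared peaks, with 2 on X, one of 17.0, so all 3 classes were sparse on X. The sites on X scored 7.84 to 15.2 with a median of 10.2, close to the median of all narrow sites, and were 91.5 bp wide in the median. No 2 of them lay within 10 kb of each other, and the median distance to the nearest was 1834 kb. The sex of the embryos is not given, and the mappable length of X was not tested.

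Narrow sites made up 72.7% of all 2828 unshared peaks (71.1 to 74.4%), and the intervals of 18 of the 20 chromosomes held this share. Chromosomes 11, at 81.0% (73.7 to 87.0%), and 3, at 66.3% with an interval that ends just below, were the other 2. These intervals too were not adjusted for the number of chromosomes. The lowest share was 65.4% on chromosome 12 (56.5 to 73.5%). Over the 20 chromosomes, narrow and wide unshared peaks per Mb had a Pearson's r of 0.66 and a Spearman's rho of 0.17, and over the 19 without X they were 0.14 and 0.03.

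The longest empty stretches also show the spread. On chromosomes 1 to 19 the longest distance between the starts of neighbouring narrow sites ran from 6.18 Mb on chromosome 9 to 12.3 Mb on chromosome 7, and on X it was 29.7 Mb. The most isolated site was at chr7:4636685-4636828, with a score of 12.9, 12.3 Mb from any other Foxa1 day 30 peak and 10.4 Mb from any other list.

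Of the 2057 narrow sites, 468 (22.8%) had a peak of another list within 100 kb. The other 7 lists together held 1508 peaks, and the distances were not compared with those expected from that number alone. The nearest peak of any other list was a median of 592.4 kb away (interval 532.6 to 659.1 kb), with quartiles of 123.8 and 1663 kb. Wide unshared peaks had a median of 588.9 kb (468.3 to 694.6 kb), within the interval of the narrow sites. A peak of another list lay within 10 kb of 214 narrow sites (10.4%, 9.12 to 11.8%) and 76 wide ones (9.86%, 7.85 to 12.2%), and no peak of another list lay within 1 Mb of 769 narrow sites.

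Among the larger lists, Foxa1 day 2 came closest and Foxa2 day 30 stayed farthest. These distances were not adjusted for the number of peaks, and a list with fewer peaks lies farther away by that alone. Foxa2 day 30 is the smallest of these lists. Foxa1 day 2, with 442 peaks, had a median distance of 1679 kb, and 777 of the 2057 sites (37.8%) had one of its peaks within 1 Mb. Foxa3 day 30, with 265 peaks, followed at 2842 kb and 27.5% within 1 Mb. The Hnf4a day 30 list was farther away, 3763 kb and 22.3%, although its 448 peaks outnumber both. Of its peaks, 143 (31.9%) are crowded into the dense blocks, and the part of this crowding in the distance was not tested. Foxa2 day 30, with 174 peaks, was at 5194 kb and 21.0%.

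The other day 2 lists lay much farther away. The median distance was 24.5 Mb to Foxa2 day 2 (23 peaks), 26.8 Mb to Foxa3 day 2 (146 peaks) and 35.6 Mb to Hnf4a day 2 (10 peaks), over the sites with a peak of that list on their chromosome. That left out 489, 351 and 1330 sites. Foxa2 day 30, with 174 peaks, was at 5.19 Mb. The part that the placement of the Foxa3 day 2 peaks had in their distance was not tested. The closest any narrow site came to a Hnf4a day 2 peak was 101.4 kb, at chr5:17076572-17076711.

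**Figure D4:**
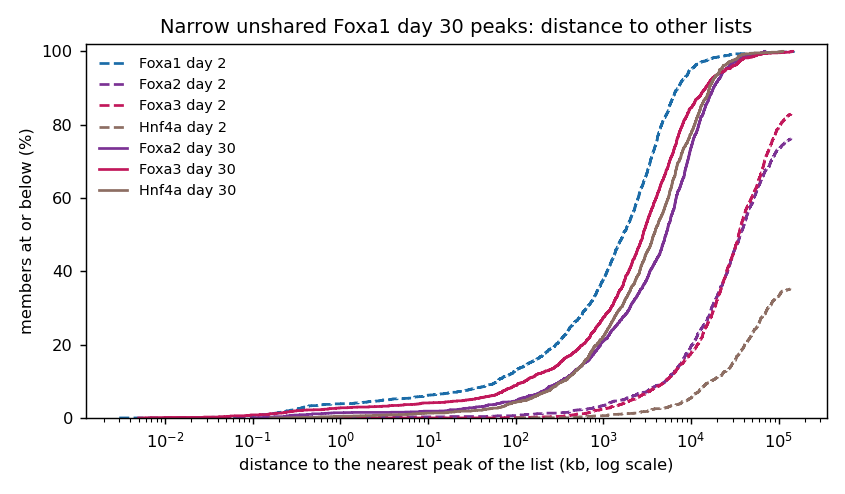
Cumulative share of the 2057 narrow unshared sites (percent) by distance in kb, on a log axis, to the nearest peak of each other list, with day 2 lists dashed and day 30 lists solid. Foxa1 day 2 has the shortest distances, and the curves of Foxa2, Foxa3 and Hnf4a day 2 end below 100% because some chromosomes hold no peak of those lists.

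The list that held the nearest peak was Foxa1 day 2 for 776 sites (37.7%), although its peaks are 29.3% of those in the other lists. It was Foxa3 day 30 for 493 (24.0%, with 17.6% of the peaks), Hnf4a day 30 for 454 (22.1%, with 29.7%) and Foxa2 day 30 for 264 (12.8%, with 11.5%). Foxa2 day 2, Hnf4a day 2 and Foxa3 day 2 were nearest for 30, 22 and 18 sites. Within 1 kb the order of the large lists was the same at the top, with 80 sites near Foxa1 day 2, 57 near Foxa3 day 30, 30 near Foxa2 day 30 and 10 near Hnf4a day 30. Near Foxa2 day 2 there were 6, near Foxa3 day 2 there was 1, and near Hnf4a day 2 there was none, which allows a share of up to 0.146% (3 counts of 2057; the exact interval ends at 0.179%).

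Some sites missed another list by a few bases. Another list came within 100 bp of 33 sites, within 500 bp of 112 (5.44%, 4.50 to 6.51%) and within 1 kb of 138 (6.71%). The smallest miss was 3 bp, between a site of 79 bp at chr12:58418587-58418665 (score 8.98) and a Foxa1 day 2 peak. The site at chr2:168357902-168358006 lay 5 bp from a Foxa3 day 30 peak, chr13:53825669-53825787 lay 6 bp from one, and 1 site on chromosome 18 lay 7 bp from one. Also near Foxa3 day 30 were chr5:75548015-75548139 at 10 bp, chr11:16446798-16446914 at 27 bp and chr11:16447270-16447364 at 28 bp, and these last 2 are neighbours 0.355 kb apart. Foxa1 day 2 was missed by 11 bp at chr3:69597090-69597223, by 15 bp at chr10:43382353-43382435 and by 20 bp at chr2:20440814-20440890.

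These near misses mostly flanked a Foxa1 day 30 peak that did overlap the other list. For 111 of the 138 sites within 1 kb (80.4%), the nearest peak of the other list was overlapped by another Foxa1 day 30 peak, and for 27 it was not. Of the 10 closest sites, 9 had another Foxa1 day 30 peak within 300 bp, and the exception was the site on chromosome 5, 107.4 kb from the next. In the median these 138 sites scored 8.98 and were 96 bp wide, against 10.2 and 99 bp for the rest.

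The closest sites to the remaining lists either had another Foxa1 day 30 peak within 100 bp or stood alone. A site at chr3:136264895-136265002 lay 30 bp from a Foxa2 day 2 peak and 78 bp from the next narrow site. A site at chr1:87707725-87707834, with a score of 22.4, lay 110 bp from a Foxa2 day 30 peak, 63 bp from a Foxa3 day 30 peak and 72 bp from another Foxa1 day 30 peak. A site at chr7:122236073-122236148 lay 232 bp from a Foxa3 day 2 peak. The site nearest to Hnf4a day 30, at chr8:112089647-112089768 with a score of 16.5, was 160 bp from that list and 127.5 kb from any other Foxa1 day 30 peak. Within 500 bp of Foxa2 day 30 there were 24 narrow sites (1.17%, 0.749 to 1.73%) and 1 wide unshared peak (0.130%, 0.00328 to 0.721%), and for Foxa1 day 2 there were 70 (3.40%) and 23 (2.98%).

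At the ends of the width range, the 3 highest-scoring sites of 76 bp were at chr11:63389067-63389142 (score 13.9), 65 bp from another narrow site, at chr3:113243117-113243192 (13.6), 149 bp from a Foxa2 day 30 peak, and at chr13:104968962-104969037 (12.6), 141.0 kb from any other Foxa1 day 30 peak. Of the 3 highest-scoring sites of 149 bp, 1 at chr11:3306162-3306310 (18.9) stood 73.7 kb from the next peak of its list and 1 at chr3:132874477-132874625 (16.5) only 64 bp, and the third, on chromosome 18, scored 11.4. Both the narrowest and the widest sites thus included lone sites and sites in tight groups.

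The scores of the narrow sites took few values. The 2057 sites shared 227 distinct scores, and the 10 most common scores covered 1115 sites (54.2%). The most common, 7.84, was shared by 196 sites (9.53%). Most sites had a score equal to −log10 of the upper tail of a Poisson distribution. That tail is the chance of seeing more than a given count when a given mean is expected. In a scan of 22000 means at a tolerance of 0.0005, 0.8015 matched 852 sites, 1 matched 526 and 2.214 matched 208 (10.1%). How many matches such a scan yields by itself was not tested. A mean of 0.801541 was chosen as the one that matches the most sites, and 857 sites (41.7%) match it to within 2e-05. With a mean of 1 another 526 sites (25.6%) do, 1383 (67.2%) in all. These are counts of sites, many with the same score, and not of distinct scores. Read this way, the tail lay above a count of 11 in the median site for both means, with quartiles of 9 and 13 for the first and 10 and 13 for the second. Counts of 9 to 13 took in 701 of the 857 and 414 of the 526. The files do not state this reading, and the read depth of the library is unknown.

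**Figure D5:**
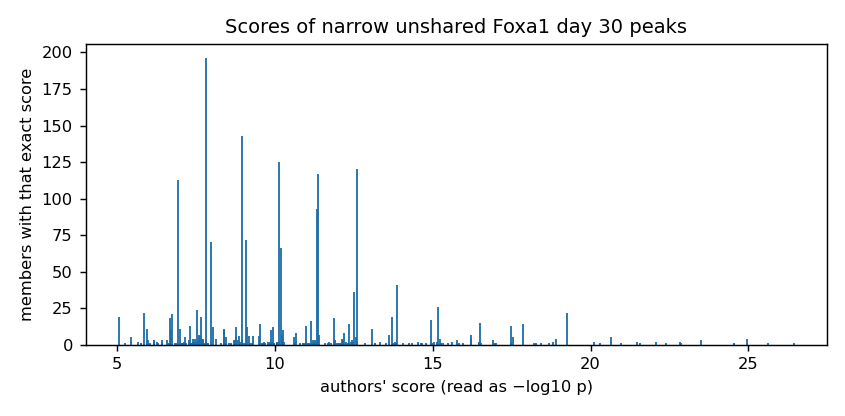
Number of narrow unshared sites (vertical lines) at each exact value of the authors' score, read as −log10 p. Most sites stand on a ladder of repeated values, the highest at 7.84 with 196 sites.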

How the data were processed

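Of 16 samples, 8 ChIP samples each had 1 peak list, and the inputs were not used here. Tools in the submitters' processing notes are MACS2 2.1.0, bedtools 2.16.2 and BWA 0.6.2, on mm9, with no role, order or threshold, and pooling and the use of the inputs are not given in the sources used here. Each deposited list has a chromosome, start, end, name and score per peak; the values of the authors' deposited score fit a −log10 p-value, and it was used as such. Groups come from the titles. Positions are printed 1-based.

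The members were found by the rule in the opening, and these and the choices of results were made with earlier results of these data known. Distances are bases between edges, on the same chromosome. Shares carry exact Clopper-Pearson 95% intervals and medians binomial ones, which cover counting error only and treat neighbouring peaks as independent. No test was made, because there was 1 sample per factor and day. Depth is unknown.

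Named sites were set by rule: the 10 highest scores, the 3 narrowest and 3 widest, the 10 closest to another list, the closest to each list, the most isolated, and the 5 chains with the most members (equal sizes ordered by start). Windows, the score ladder and the score groups were chosen after the data were seen. The code for distances and chains was tested on simulated peaks. Python 3.11.15, NumPy 2.4.6, SciPy 1.17.1, pandas 2.3.3 and Matplotlib 3.10.9 were used. Planned counts of forkhead motifs and nearest genes were not run, because no genome of mm9 was used here.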

Additional observations from a re-analysis of the deposited data

How the results depend on the processing

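Of 60 values under other settings, 41 stayed within 1.5 times the main count or within the interval of the main value, and 19 moved. No value changed under the removal of mitochondrial, random and unplaced sequences, and none left its interval under the removal of dense blocks, the 50% overlap, exclusion by the 5 other Foxa lists only, or centre distances. The share on chromosome X ran from 0.925 to 1.27%, within its interval in all settings. The number of sites was 1021 with scores of 10 or more and 1569 to 2487 under the width limits of 120 and 200 bp. Another narrow site within 10 kb was found for 13.3% under 120 bp, 20.2% under 200 bp, 14.0% with no other list within 500 bp, 7.25% with scores of 10 or more and 6.70% with Foxa1 day 30 peaks within 500 bp merged. The median distance to the next narrow site was then 283.9, 139.5, 226.9, 546.4 and 288.8 kb. A Foxa1 day 30 peak lay within 10 kb of 21.5% with no other list within 500 bp, 15.2% with scores of 10 or more and 12.1% with merging. The median distance to other lists was 677.1, 680.0 and 685.0 kb in these 3 settings. Chains took in 12.9% of sites with a gap of 5 kb and 29.1% with 50 kb. Merging and the wider exclusion remove close neighbours by construction, and fewer sites are farther apart. The window for motifs was not run. No paired analysis was possible because there was 1 sample per factor and day and no test. Without the depth of the libraries, absence from another list does not show that a site was unbound there.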

Other observations

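The shortest peak was also the most common width in this list and differed between lists. It was 76 bp for Foxa1 day 30 (310 of 3331 peaks), 56 bp for Foxa1 day 2 (83 of 442), 60 bp for Foxa2 day 30 (33 of 174), 57 bp for Hnf4a day 30 (71 of 448) and 175 bp for Foxa3 day 30 (19 of 265). A width limit of 150 bp would therefore take no peak of the Foxa3 day 30 list. The smallest gap between neighbouring peaks was 50 bp for Foxa1 day 30, 54 bp for Foxa1 day 2, 51 bp for Foxa3 day 2, 53 bp for Hnf4a day 30, 60 bp for Foxa2 day 30 and 109 bp for Foxa3 day 30.

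On chromosome 4, the sites at 42386243 to 42386356 and 42780825 to 42780936 had the same score of 24.96 and widths of 114 and 112 bp. They lie in 1 window of 1 Mb with 6 narrow sites, 10 Foxa1 day 30 peaks and no peak of another list, and the highest scores of the other windows with 6 or more narrow sites ran from 9.08 to 26.4.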
